A study of Mus musculus with 17 samples.

Results

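The genes described here are 10 digestive enzymes and cofactors of the pancreatic acinar cell, Amy2b, Prss2, Cpa1, Cpb1, Ctrb1, Pnlip, Cel, Clps, Cela2a and Cela3b, as read in RNA labelled as mouse colon. They are 10 of the 25029 gene or transcript names whose probes were tested. The array carries 12 probes for them among 56605, and each gene was read by the probe with the highest mean signal. The 17 arrays came from male C57Bl6/J mice, aged 6 weeks at the start for the wild-type (WT) animals, with 2 weeks of acclimatization. WT CONT (n = 4) and Pxr-/- CONT (n = 5) received corn oil alone, and WT PCN (n = 4) and Pxr-/- PCN (n = 4) received 100 mg/kg of pregnenolone 16α-carbonitrile (PCN), a ligand of the rodent pregnane X receptor (PXR), in corn oil by daily intraperitoneal injection for 4 days. All mice were killed at zeitgeber time 6, 6 h after the last injection, and the labels call them fed. Pxr-/- animals, which lack PXR in every tissue, came from an in-house colony, whereas WT animals were purchased, so genotype and colony cannot be told apart. The genes were chosen from their signal on these same arrays, where they were already known to be high on a few, so their levels are given as a description and carry no test.

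Acinar cells make up most of the exocrine pancreas. They synthesize digestive enzymes in bulk, store the proteases as inactive zymogens in secretory granules, and release the granules into the duct when a meal stimulates them. Transcription of these genes depends on the PTF1 complex, in which Ptf1a and Rbpjl, the acinar form of the Notch factor Rbpj, bind DNA together. Colonocytes are not a main source of these enzymes. In the mouse much of the pancreas is a diffuse tissue that lies in the mesentery near the gut.

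The probes below are printed because they are the molecules that read the enzymes. Each is a 60-base oligonucleotide, given in the sense orientation with the position that the array annotation states on mm9. They belong to an amylase, a trypsinogen, a lipase and an elastase.
Amy2b, chr3:112957176-112957235, minus strand: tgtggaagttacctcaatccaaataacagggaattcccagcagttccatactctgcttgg
Prss2, chr6:41473937-41473996, plus strand: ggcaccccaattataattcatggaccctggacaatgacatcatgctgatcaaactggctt
Cel, chr2:28411609-28411668, minus strand: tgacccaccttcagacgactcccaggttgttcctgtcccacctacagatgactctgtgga
Cela3b, chr4:136977835-136977894, minus strand: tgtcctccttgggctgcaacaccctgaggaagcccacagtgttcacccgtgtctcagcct
Amylases and trypsinogens include near-identical copies, and the elastases are a family of related genes, so the signal of such a probe may include RNA of a related gene. All 10 genes are protein-coding in the RefSeq annotation of GRCm38.p6, on chromosomes 2, 3, 4, 6, 8, 17 and 19.

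Values are log2 signals, quantile-normalized over the 17 arrays, so that 1 unit is a doubling. A probe was counted as detected where the scanner software marked it as well above background, which held for 60.95% to 69.65% of all probes per array. The 12 colon epithelium genes checked, among them Aqp8 and Car1, were detected on every array, with a list mean of 14.91 to 15.97. The single probe read for Nr1i2, the gene of PXR, was detected on all 17 arrays and overlapped between the genotypes (11.10 to 12.44 in WT, 10.39 to 11.93 in Pxr-/-), so it does not check the labels. WT PCN replicate 3 and Pxr-/- CONT replicate 2 carry different labels but nearly the same values (near-identical arrays, SD of the log2 differences over 38646 probes 0.198), and so do WT PCN replicate 4 and Pxr-/- PCN replicate 2 (SD 0.172). Of the 136 pairs, the third closest had an SD of 0.297 and the farthest 0.616. The labels of these 4 arrays are in question, and the group comparisons are given with and without them. The lowest Nr1i2 signals of WT belonged to WT PCN 3 (11.10) and WT PCN 4 (11.15). Without the 4 arrays Nr1i2 read 11.85 to 12.44 in WT (n = 6) and 10.39 to 11.93 in Pxr-/- (n = 7), where only Pxr-/- PCN 3 reached the WT range.

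The enzymes ran from abundant on a few arrays to near the background on most, with WT PCN 1 in between and Clps as an exception. Over the 10 genes, the mean log2 signal was 17.50 in WT CONT replicate 4, 15.06 in WT PCN replicate 3, 15.03 in Pxr-/- CONT replicate 2 and 10.49 in WT PCN replicate 1. On the other 13 arrays it lay between 6.15 and 6.48, or between 5.46 and 5.84 without Clps. All 10 enzymes were detected on those 4 arrays, and 5 to 8 of them on each of the others. For 9 of the 10 genes the same 4 arrays were the highest, with no value of the other 13 arrays reaching theirs, a pattern of 41 of 25002 genes on the array (0.164%), these included. The rule that chose the genes rests on these values, so nothing is read from that comparison. In bulk RNA, fewer cells of a type and less RNA per cell cannot be told apart.

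**Figure D1:**
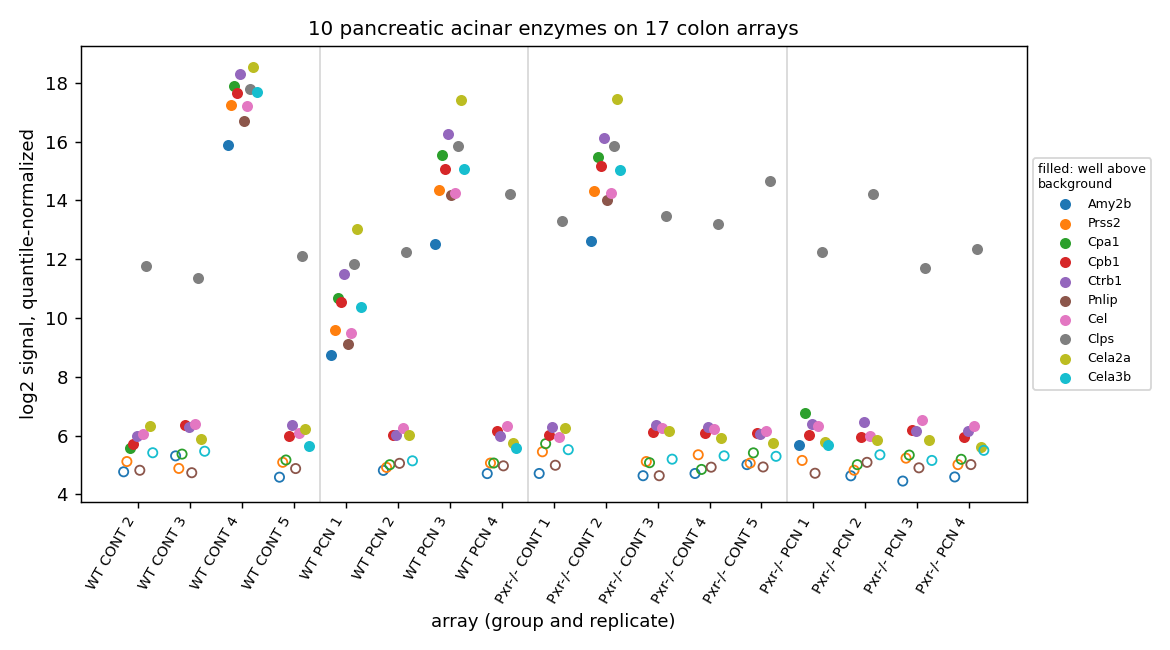
Log2 quantile-normalized signal (y axis) of the 10 enzymes on each of the 17 arrays (x axis, by group and replicate), with 1 point per enzyme, filled where the probe was well above background and open where it was not. WT CONT 4, WT PCN 1, WT PCN 3 and Pxr-/- CONT 2 stand apart, and Clps is at 11.37 or above on every array.

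Among the proteases, Prss2, an anionic trypsinogen, stood at 17.24 in WT CONT 4, 14.37 in WT PCN 3, 14.33 in Pxr-/- CONT 2 and 9.58 in WT PCN 1. It was not detected on any other array, where its signal was 4.82 to 5.45. Ctrb1, a chymotrypsinogen, read 18.31, 16.27, 16.13 and 11.48 on the same arrays in that order and 5.99 to 6.46 on the others. These values leave a gap of more than 4 units on both genes between the lowest of the 4 arrays and the highest of the rest. Cela2a, an elastase, read 18.55, 17.43, 17.44 and 13.02, against 5.61 to 6.33 elsewhere. Cela3b, another member of the elastase family, was at 17.69, 15.08, 15.03 and 10.39, against 5.14 to 5.67.

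The carboxypeptidases trim amino acids from the end of peptides that trypsin, chymotrypsin and elastase have cut. Cpa1 read 17.88 in WT CONT 4, 15.56 in WT PCN 3, 15.48 in Pxr-/- CONT 2 and 10.68 in WT PCN 1, and 4.85 to 6.77 on the other 13 arrays. Cpb1 read 17.64, 15.07, 15.16 and 10.56, against 5.70 to 6.37. For both genes the 4 arrays lay above all others, with WT CONT 4 first and WT PCN 1 last.

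Of the enzymes for starch and fat, Amy2b, a pancreatic amylase, read 15.89 in WT CONT 4, 12.53 in WT PCN 3, 12.62 in Pxr-/- CONT 2 and 8.74 in WT PCN 1, and 4.45 to 5.69 elsewhere. Pnlip, the triglyceride lipase, read 16.72, 14.18, 14.03 and 9.12. Like Prss2 it was not detected on any of the other 13 arrays (4.64 to 5.09). Cel, a lipase that bile salts activate, read 17.22, 14.25, 14.24 and 9.49 on the 4 arrays and 5.96 to 6.55 on the others, where it was still marked as detected. Signals of Cel, Cpb1, Ctrb1 and Cela2a were detected on all 17 arrays, although on 13 of them they were at most 6.55.

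A 60-base probe has its own brightness, so levels of different enzymes were not compared with each other within an array. The difference of the same probe between arrays was used instead, with WT CONT 4 as the reference. WT PCN 3 was lower by a median of 2.56 over the 10 enzymes (range of the log2 difference -3.35 to -1.13, SD 0.62). Pxr-/- CONT 2 had a median difference of -2.58 (-3.27 to -1.11, SD 0.61), or 16.8% of the reference signal. WT PCN 1 had a median difference of -7.17 (-7.73 to -5.53, SD 0.72), or 0.693%.

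**Figure D2:**
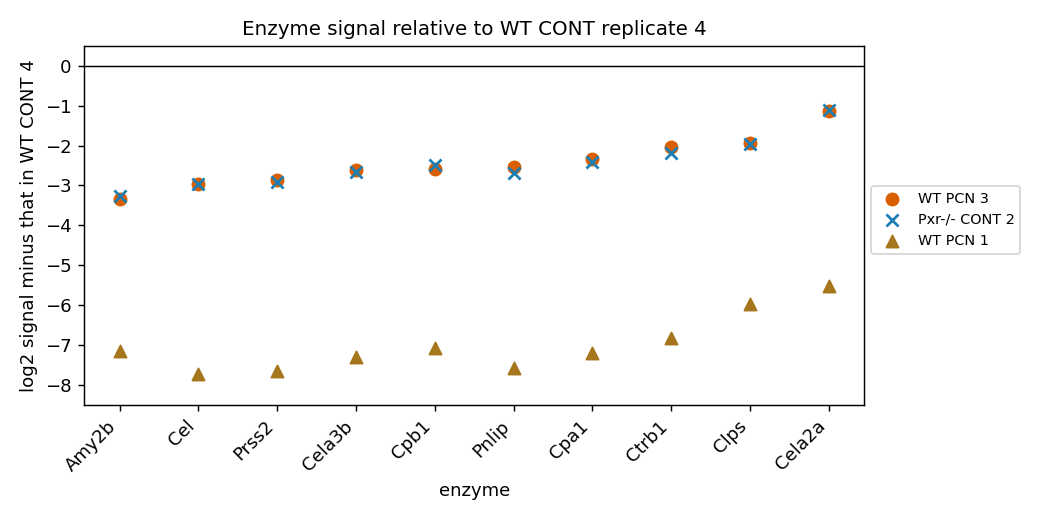
Log2 signal of each enzyme (x axis) on 3 arrays minus its log2 signal on WT CONT replicate 4 (y axis), ordered by the value in WT PCN replicate 3. The points of WT PCN 3 and Pxr-/- CONT 2 differ by at most 0.15 per enzyme, those of WT PCN 1 lie between -7.73 and -5.53, and Cela2a is the least reduced on all 3 arrays.

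The enzymes did not keep a single proportion. Cela2a, at -1.13, -1.11 and -5.53 in WT PCN 3, Pxr-/- CONT 2 and WT PCN 1, was the least reduced of the 10 on each array. Its signal in WT CONT 4 was the second brightest of all probes there, with a raw median intensity of 409042 against 423569 for the brightest spot, and no spot was marked as saturated. The other Cela2a probe on the array read 8.25 in WT CONT 4 and 5.66 in both WT PCN 3 and Pxr-/- CONT 2. It was not detected in WT PCN 3 or WT PCN 1, so the smaller reduction of Cela2a rests on its brighter probe. Amy2b was the most reduced in WT PCN 3 (-3.35) and Pxr-/- CONT 2 (-3.27), and Cel in WT PCN 1 (-7.73). Set against Cpa1 on the same array, the log2 difference of Cela3b varied by only 0.29 over the 4 arrays, that of Cpb1 by 0.37, that of Ctrb1 by 0.38 and that of Pnlip by 0.39. It varied by 0.54 for Prss2, 0.64 for Cel, 1.08 for Amy2b, 1.22 for Clps and 1.67 for Cela2a. Clps in WT PCN 1 (11.83) lay within its range on the other 13 arrays (11.37 to 14.65), so its 1.22 is not read as a change of proportion. Without Clps the median difference of WT PCN 1 from WT CONT 4 was -7.20 (SD 0.67). WT PCN 3 and Pxr-/- CONT 2 differed from each other by a median of 0.066 and at most 0.153 over the 10 enzymes, so these arrays give 1 profile rather than 2, and the 4 arrays hold 3 distinct ones.

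A trace of Cpa1, but not of the whole set of enzymes, was read on Pxr-/- PCN 1. There 8 of 10 enzymes were detected, and 3 of them, Cpa1 (6.77), Amy2b (5.69) and Cela3b (5.67), were the highest of the 13 arrays without the full set. The next highest values were 5.73, 5.31 and 5.65, so the lead of Cela3b was 0.02 and that of Cpa1 1.04. Cpb1, Ctrb1, Cel, Clps and Cela2a were detected on all 17 arrays. Among the 13 arrays, Cela3b was also detected on WT CONT 5 and WT PCN 4, and Cpa1 on WT CONT 2. The lowest signal marked as detected was 4.66 on Pxr-/- PCN 1, against 4.92 to 5.56 on the other arrays. Prss2 (5.16) and Pnlip (4.72) were not detected on Pxr-/- PCN 1. Cela2a (5.80), Pnlip and Clps (12.24) read below their medians over the 13 arrays there, which were 5.89, 4.93 and 12.33. Prss2, Ctrb1 and Cel read above theirs without being the highest, and Cpb1 was at its median. Pxr-/- PCN 1 shares slide 5 with Pxr-/- CONT 2, and WT PCN 1 shares slide 7 with WT CONT 4. WT CONT 3, which shares slide 4 with WT PCN 3, had 5 of 10 enzymes detected. Transfer between arrays of a slide was not tested.

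The other genes of the acinar secretory programme were read from a list of 29 genes on the array. The list mean was 14.78 in WT CONT 4, 12.49 in WT PCN 3, 12.49 in Pxr-/- CONT 2 and 9.26 in WT PCN 1, and 6.85 to 7.30 on the other 13 arrays. The same 4 arrays were the highest for 17 of the 29 genes, beside 0.164% of all genes, a share that includes enzymes and genes of this list. The list was chosen with earlier results of these data known, so nothing is read from that comparison. Among the trypsinogens, Prss3 read 17.82, 16.08, 16.14 and 11.31, and 4.97 to 5.72 elsewhere. Ctrc, a chymotrypsin that regulates trypsin, read 18.21, 16.02, 15.98 and 11.33, and 5.31 to 6.23 elsewhere. Reg1 and Reg2, secreted lectin-like proteins of the acinar cell, reached 16.99 and 17.18 in WT CONT 4 and were at most 6.30 on the 13 arrays.

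Over those 17 genes, the difference from WT CONT 4 had a median of -3.02 in WT PCN 3 (-4.44 to -0.29), -3.04 in Pxr-/- CONT 2 (-4.34 to -0.24) and -6.89 in WT PCN 1 (-10.06 to -3.92). The least reduced in all 3 was the amylase Amy2a5, which read 17.69, 17.40, 17.45 and 13.77. Its relative Amy2b differed by -3.35 where Amy2a5 differed by -0.29 (WT PCN 3), and Amy1, on the salivary list, by -0.62. The most reduced was the trypsinogen Gm5771, at 15.80, 11.36, 11.46 and 5.74. Its lowest signal on any array was 4.77, and the lowest signal marked as detected in WT PCN 1 was 4.99. Its difference of -10.06 there is thus limited by the floor. Near-identical copies in both families limit what these probes can separate.

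A second set of list genes was high on all arrays. Sycn, a zymogen granule protein, read 14.22 to 17.76 over the 17 arrays. Cela1 was highest in WT CONT 4 (17.48), WT PCN 3 (16.86) and Pxr-/- CONT 2 (16.77), and its signal of 16.46 in WT PCN 1 lay within the 14.46 to 16.49 of the other 13. Spink1, the secreted trypsin inhibitor, read 14.50 to 17.55 over the 17 arrays and Klk1, tissue kallikrein, 15.78 to 16.60, neither highest in an enzyme-rich array. On the 13 arrays where 9 of the 10 enzymes were near background, these 4 genes read at least 14.22.

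By the root mean square difference of centred profiles over the 17 arrays, the gene closest to the mean of the 10 enzymes was an unnamed transcript (0.41), followed by Reg1 (0.42), Reg2 (0.56), Amy1 (0.62), Ctrc (0.70), Cela3a (0.75) and Prss3 (0.76). Of the 20 closest genes, 18 belonged to the gene lists used here, and 2 were unnamed transcripts. Their difference was 0.41 to 1.62, against a median of 3.71 over 24992 genes. A gene that hardly varies takes its difference from the spread of the enzymes themselves, which sets that median. The lists were chosen with earlier results of these data known, so nothing is read from either comparison.

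For 16 acinar factors, machinery genes and receptors the list mean differed less between arrays, at 6.72 to 9.53. Of these genes, 11 were detected on all 17 arrays, and 4 were highest on the same 4 arrays. Some single genes differed more than the list mean. Rbpjl read 11.42 in WT CONT 4, 8.40 in WT PCN 3, 8.25 in Pxr-/- CONT 2 and 6.40 in WT PCN 1, and 5.25 to 5.76 elsewhere. Ptf1a, its partner, read 7.50, 6.09, 5.38 and 6.23, and 4.66 to 5.91 elsewhere. It was detected on 4 arrays. Pdia2, a pancreatic protein disulfide isomerase, read 14.81, 11.40, 11.47 and 7.46, and 5.68 to 6.51 elsewhere. Bhlha15, which shapes secretory cells in several organs, and Nr5a2 were detected on all 17 arrays, with Nr5a2 at 11.27 to 12.02.

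Markers of other cells were read on the same arrays. Of the islet hormones, Ins1 was 9.55 in WT CONT 4, 5.66 in WT PCN 3, 5.69 in Pxr-/- CONT 2 and 5.29 in WT PCN 1, with 4.96 to 5.67 elsewhere. Ins2 read 9.49, 5.66, 5.54 and 6.82, and 4.74 to 5.28 elsewhere. Insulin RNA was thus clearly above the other arrays in WT CONT 4, and Ins2 also in WT PCN 1. Gcg and Sst, which enteroendocrine cells also make, were detected on all 17 arrays (12.09 to 13.17 and 11.96 to 13.59). No gene of the duct (8), liver (8), adipocyte (8), small intestine (9), stomach (8), lymph node (6), skeletal muscle (5) or colon epithelium (12) lists had these 4 arrays as its highest. The mean of the liver genes was highest in WT CONT 5 (11.37), as was that of the adipocyte genes (11.14). An enzyme-rich array came second in both, WT PCN 1 for the liver genes (9.35, against a median of 7.65) and WT CONT 4 for the adipocyte genes, whose median was 9.12. The other 3 enzyme-rich arrays read 7.15 to 7.53 for the liver genes and 8.96 to 9.79 for the adipocyte genes. The part of these tissues in the enzyme signal was not tested. Of 5 salivary genes, 3 (Bpifa2, Smr3a and Prol1) were not detected on any array, and only Amy1 followed the enzymes.

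**Figure D3:**
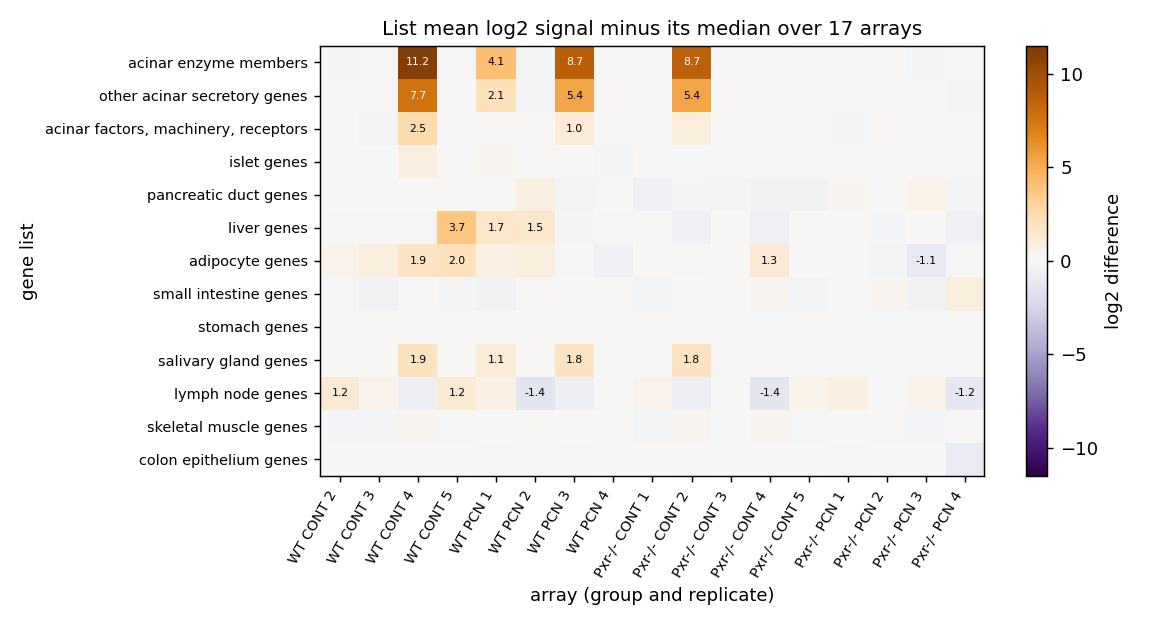
Mean log2 signal of each gene list (rows) on each of the 17 arrays (columns) minus the list's median over the arrays, in log2 units by colour, with numbers where the difference is at least 1. The enzyme row holds values of 4.1 to 11.2 on the 4 arrays, and the row of other acinar secretory genes is high on the same ones.

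Clps, the colipase that anchors pancreatic lipase to fat droplets, was the exception among the 10. It was detected on all 17 arrays and read 11.37 to 14.65 on the 13 arrays without the full set. In WT CONT 4, WT PCN 3 and Pxr-/- CONT 2 it was higher, at 17.81, 15.87 and 15.84. In WT PCN 1 it read 11.83, which lay within the range of the 13 arrays, while the other 9 enzymes stood above theirs. Pnliprp2, a lipase related to Pnlip, read 5.94 to 12.18 on the 13 arrays and 12.52, 11.54, 11.53 and 6.77 on the 4.

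On the 13 arrays the same 6 were highest for both genes. Clps and Pnliprp2 read 14.65 and 11.69 in Pxr-/- CONT 5, 14.23 and 12.14 in Pxr-/- PCN 2, and 14.21 and 12.18 in WT PCN 4. They read 13.48 and 8.88 in Pxr-/- CONT 3, 13.29 and 8.91 in Pxr-/- CONT 1, and 13.20 and 9.72 in Pxr-/- CONT 4. The other 7 arrays lay at 11.37 to 12.33 for Clps and 5.94 to 7.56 for Pnliprp2. WT PCN 4 and Pxr-/- PCN 2 are a near-identical pair, and the other 4 of the 6 are all the Pxr-/- CONT arrays that lack the full set. This set of 6 was the highest for 102 of 25002 genes (0.408%), Clps and Pnliprp2 included, and among them were, named after their values were seen, Retnlb, a goblet cell protein, Itln1, a lectin, and the antimicrobial Ang4. Pnliprp2 in Pxr-/- CONT against WT CONT differed by 2.24 (SE 1.60, limma, adjusted p = 0.566), and by 1.91 (SE 1.14, adjusted p = 0.614) without the 4 near-identical arrays.

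**Figure D4:**
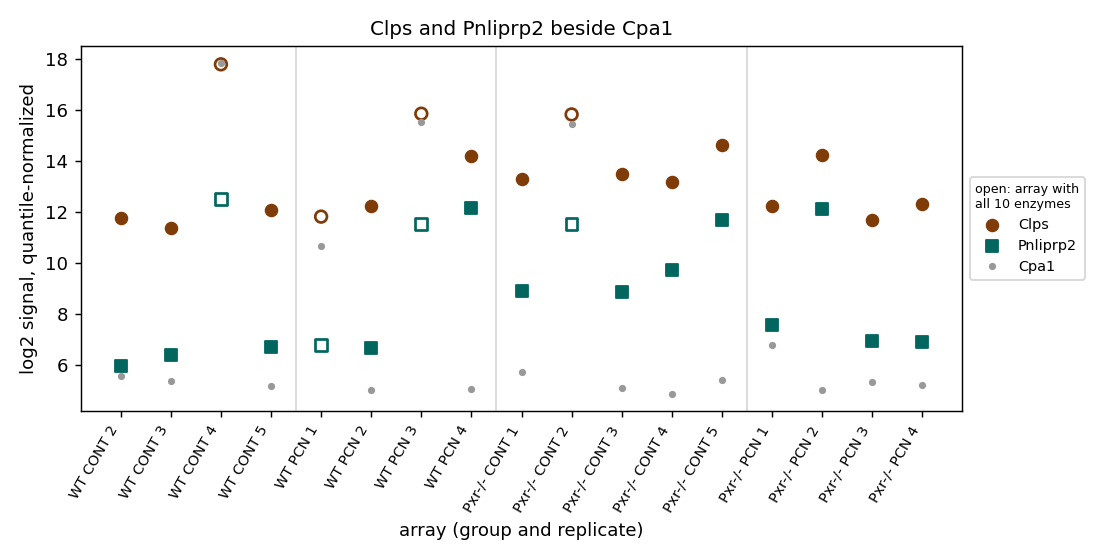
Log2 quantile-normalized signal (y axis) of Clps, Pnliprp2 and, for comparison, Cpa1 on each of the 17 arrays (x axis), with open symbols on the 4 arrays that held all 10 enzymes. Clps and Pnliprp2 are high on arrays such as Pxr-/- CONT 5, where Cpa1 is at 5.41.

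The promoters of the enzymes were searched for the letters that the PTF1 complex is known to read, an E-box and a TC-box. The 250 bases before the gene start were taken from RefSeq (GRCm38.p6), which gave 9 promoters for 9 genes and none for Clps. CAGGTG, on either strand, was found in 6 of 9, against 17.2% of 32851 promoters of the same length, and TGGGAA, on either strand, in 6 of 9 against 21.6%. TATAAA on the gene's strand was found in 3 of 9 against 7.59%. Both boxes stood in 3 of 9 against 3.91%. Those 3 are printed, with the matches in capitals.
Prss2, chr6:41521526-41521775, plus strand: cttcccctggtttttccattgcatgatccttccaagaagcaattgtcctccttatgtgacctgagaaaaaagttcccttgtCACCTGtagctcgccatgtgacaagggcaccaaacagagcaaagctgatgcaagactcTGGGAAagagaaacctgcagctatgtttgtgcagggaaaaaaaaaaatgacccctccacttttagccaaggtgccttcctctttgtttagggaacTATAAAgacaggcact
Cel, chr2:28563404-28563653, minus strand: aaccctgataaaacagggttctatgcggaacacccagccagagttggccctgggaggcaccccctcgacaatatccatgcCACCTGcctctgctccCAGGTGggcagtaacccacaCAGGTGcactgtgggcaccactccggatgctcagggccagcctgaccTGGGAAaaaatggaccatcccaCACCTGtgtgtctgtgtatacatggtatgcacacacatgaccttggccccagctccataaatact
Cela2a, chr4:141826006-141826255, minus strand: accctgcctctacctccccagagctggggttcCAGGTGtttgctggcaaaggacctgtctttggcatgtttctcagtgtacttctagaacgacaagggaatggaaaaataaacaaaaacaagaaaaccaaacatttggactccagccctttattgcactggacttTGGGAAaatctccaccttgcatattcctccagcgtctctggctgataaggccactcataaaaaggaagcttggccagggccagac
The nearest boxes are 52 bases apart in Prss2, 16 in Cel and 127 in Cela2a. A match of letters is not a measured binding site.

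The design asks whether PCN or loss of PXR changed a transcript. For these enzymes the groups compared overlapped throughout, and each group mean depended on how many of the 4 arrays it held, namely 1 of 4 in WT CONT, 2 of 4 in WT PCN, 1 of 5 in Pxr-/- CONT and 0 of 4 in Pxr-/- PCN. Averaged over the 10 enzymes, WT CONT had a log2 signal of 9.02 ± 5.65 (SD, n = 4) and WT PCN of 9.52 ± 4.20 (SD, n = 4). Pxr-/- CONT had 8.10 ± 3.88 (SD, n = 5), and Pxr-/- PCN, without an enzyme-rich array, 6.29 ± 0.15 (SD, n = 4). PCN minus CONT was 0.50 in WT, and it became 3.33 without WT CONT 4 and -1.34 without WT PCN 3. PCN minus CONT was -1.81 in Pxr-/- and -0.08 without Pxr-/- CONT 2. Pxr-/- CONT minus WT CONT was -0.92, 1.90 without WT CONT 4 and -2.66 without Pxr-/- CONT 2. Without the 4 near-identical arrays the 3 differences were -0.70, -0.10 and -2.66.

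The wash bath, a step after hybridization that the labels record, also differed between the arrays. Bath 2 held 3 of the 4 enzyme-rich arrays and bath 1 held WT PCN 3. Within bath 1 the 3 differences were 3.02, -0.05 and 0.11, and within bath 2 they were -1.37 (1 array of WT PCN), -2.97 and -2.56. Prss2 and Pnlip were not well above background on any array of Pxr-/- PCN, and in Pxr-/- CONT only on replicate 2, so no fold between these groups is given for them.

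The other acinar secretory genes, which are not among the 10 enzymes, were tested, although their list too was chosen with earlier results known. On each of the 13 arrays without the full set 9 to 15 were detected, against 26 to 28 on the enzyme-rich ones. Some genes thus passed the filter of well above background on at least 4 arrays only with the enzyme-rich arrays counted. Of the 29 other acinar secretory genes, 27 were tested and 0 were called (limma, adjusted p of at most 0.05 and fold change over 1.5) for PCN in WT, PCN in Pxr-/-, genotype in CONT or the interaction, where 0%, 0.00517%, 0% and 0% of 38703 probes were called. At an unadjusted p under 0.05 the count was also 0 in each, against 4.66%, 7.35%, 12.7% and 5.38% of all probes. Their median log2 differences were -0.20, -1.03, -1.26 and -0.96, and those of all probes -0.00013, 0.0062, 0.0083 and 0.0062. The median standard error of these genes was 1.72 for PCN in WT against 0.12 over all probes. For PCN in WT, Amy2a5 differed by 2.70 (SE 3.25, limma, adjusted p = 0.956). Without the 4 near-identical arrays it differed by 0.87 (SE 2.86, limma, adjusted p = 1.00), and the list medians became -0.96, -0.37, -2.18 and 0.41, so that of the interaction changed sign. The calls stayed at 0 in each, and at an unadjusted p under 0.05 stood Klk1 for PCN in WT (-0.38, SE 0.15) and Pnliprp2 for PCN in Pxr-/- (-2.91, SE 1.24).

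The authors' own log2 table holds 6 of the 10 enzymes. In it, the mean of the 6 on the 13 arrays split by wash bath, at 7.74 to 8.27 in bath 1 and 6.01 to 6.39 in bath 2. In the quantile-normalized signal the same arrays lay at 6.88 to 7.34 and 6.98 to 7.33. Over all arrays of a bath, the mean was 8.98 and 9.02 in the authors' table and 8.05 and 10.04 in the quantile-normalized signal. In the authors' table WT PCN 3 stood at 16.54, close to WT CONT 4 at 16.80, and Pxr-/- CONT 2 at 14.51, whereas in the other scale WT PCN 3 and Pxr-/- CONT 2 read 15.66 and 15.64. The near-identical pair lies in different baths.

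**Figure D5:**
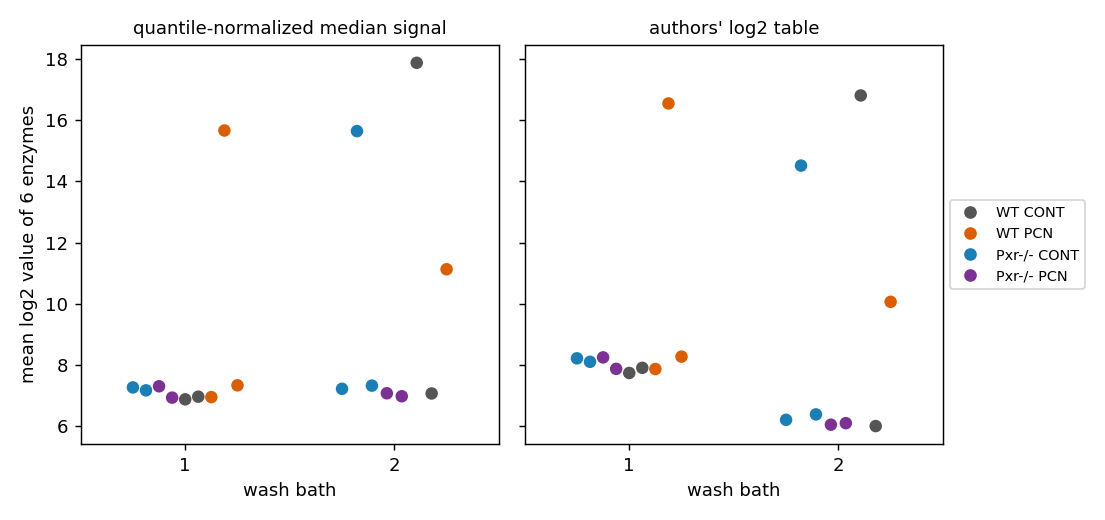
Mean log2 value of 6 enzymes (y axis) on each array, by wash bath (x axis) and coloured by group, in the quantile-normalized median signal (left) and in the authors' log2 table (right). The low arrays overlap between baths on the left and are separated on the right, where bath 1 reads 7.74 to 8.27 and bath 2 reads 6.01 to 6.39.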

How the data were processed

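RNA of whole colon was hybridized by the authors, as Cy3-labelled cRNA, to 1-colour Agilent mouse arrays. The authors deposited scanner output (Agilent Feature Extraction 10.10.1.1) that gives, per spot, the intensity of the median and mean pixel, the local background intensity, a corrected intensity and detection flags. The authors also deposited a log2 table of 36695 probes, which the methods describe as corrected for wash bath and normalized between arrays by CrossNorm. These methods were written for liver arrays. Groups and replicate numbers come from the labels, and how many different mice they stand for is open.

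Median intensities of 59305 spots, without outlier spots, were taken as log2 and quantile-normalized, and spots of a probe were averaged (56605 probes). Probes were named through RefSeq by accession (32994 matched). Enzymes were looked up by the file's gene name, and all 10 passed the filter of well above background on at least 4 arrays. Prss2 and Pnlip were detected only on the 4 enzyme-rich arrays. Amy2b, Cpa1 and Cela3b were detected on only 1, 2 and 3 others, so they too passed only with the enzyme-rich arrays counted. limma 3.58.1 in R 4.3.3 was fitted to 38703 probes over 17 arrays, with the groups and the wash bath, Benjamini-Hochberg adjustment, and calls at FDR 0.05 and fold change over 1.5. The fit was tested on simulated data. Arrays have no read depth, and their number limits the precision. p-values measure only the spread between these arrays.

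The members and lists were chosen with earlier results of these data known. All 10 enzymes were named, any gene of the 2 other acinar lists could be named, as could up to 4 genes with the widest range in each remaining list, together with the 20 genes closest in profile. Insulin genes Ins1 and Ins2, Gcg, Sst, Amy1 and the undetected salivary genes were also named where a statement turned on them. Amy2a1, Amy2a2, Amy2a3, Try10 and Spink3 were not found by name on the array. The alternatives were the corrected intensity scaled to each array's 75th percentile, normexp with an offset of 50, the authors' table, all probes of a gene, other filters, baths, slides, a replicate block and each array left out.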

Additional observations from a re-analysis of the deposited data

Results flagged for a closer look

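Single arrays stood far from the rest of their group, by the gap to the nearest array of the group as a share of the group's range. In all, 92 groups of values were looked at and 32 stood out, where chance gives about 1 in 20. Of the 32, 20 lie in the 40 groups of single enzymes, which were chosen for being high on a few arrays, and genes high on the same array are not independent, so nothing is read from that count. WT CONT replicate 4 stood apart with log2 signals of 15.89 for Amy2b, 17.24 for Prss2, 17.88 for Cpa1, 17.64 for Cpb1, 18.31 for Ctrb1, 16.72 for Pnlip, 17.22 for Cel, 17.81 for Clps, 18.55 for Cela2a and 17.69 for Cela3b, and with a mean over the 10 enzymes of 17.50.

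Pxr-/- CONT replicate 2 stood apart with 12.62 for Amy2b, 14.33 for Prss2, 15.48 for Cpa1, 15.16 for Cpb1, 16.13 for Ctrb1, 14.03 for Pnlip, 14.24 for Cel, 17.44 for Cela2a and 15.03 for Cela3b, and with a mean of 15.03. Clps did not stand apart there. In Pxr-/- PCN, replicate 1 stood apart for Amy2b at 5.69. WT PCN holds 2 high arrays, so no single array of it stood apart for an enzyme.

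The mean of the other acinar secretory genes stood apart in WT CONT 4 (14.78) and Pxr-/- CONT 2 (12.49). That of the acinar factors, machinery genes and receptors stood apart in WT CONT 4 (9.53), WT PCN 3 (8.05) and Pxr-/- CONT 2 (7.96). The salivary list, through Amy1, stood apart in WT CONT 4 (7.31) and Pxr-/- CONT 2 (7.22), and the islet list in WT CONT 4 (8.26). The liver list stood apart in WT CONT 5 (11.37) and the adipocyte list in Pxr-/- CONT 4 (10.41).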

How the results depend on the processing

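The number of called genes among the other acinar secretory genes was 0 in the 4 comparisons and stayed 0 under every alternative run, including each array left out and the replicate block. Over all probes, the counts for PCN in WT and PCN in Pxr-/- were 0 and 2, and 19 and 20 without the 4 near-identical arrays, an alternative chosen after seeing the data. They were 18 and 26 without WT PCN replicate 3. With only the groups of the contrast, 20 probes were called for PCN in Pxr-/- and 8 for genotype in CONT, against 2 and 0.

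For 9 of 10 enzymes the same 4 arrays were the highest under the corrected signal and under normexp, and for 5 of 6 in the authors' table. Differences between group means of the enzymes moved by less than 1 SD (4.01) under all alternatives. That SD is the pooled spread of single arrays within groups, which the enzyme-rich arrays make large, so it does not show stable differences. The differences for PCN in WT and genotype in CONT changed sign with single arrays, the former also without the near-identical arrays (-0.70). The difference for PCN in Pxr-/- stayed negative in the alternatives run. With each array left out they ranged from -1.34 to 3.33 for PCN in WT, from -2.26 to -0.08 for PCN in Pxr-/- and from -2.66 to 1.90 for genotype in CONT. With the wash bath as a term they were 1.16, -1.55 and -1.18. With the replicate block they were 2.19, -2.35 and -0.79. Of 11 same-numbered pairs, 6 had deviations that correlated above 0.1 (r from -0.33 to 0.45), and some of the pairs hold near-identical arrays. Differently numbered pairs were not compared, so whether the replicate numbers pair the arrays was not tested.

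The median difference from WT CONT 4 was -0.27 for WT PCN 3 in the authors' table, against -2.56, and -2.60 to -2.49 under the other alternatives. The cause was not tested. For Pxr-/- CONT 2 it ranged from -2.58 to -2.38 and for WT PCN 1 from -7.17 to -6.92.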
